A study of Mus musculus with 2 samples.

Results

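The EBF family consists of 4 transcription factor genes in the mouse, Ebf1, Ebf2, Ebf3 and Ebf4. All 4 were present among the 32285 genes counted in each of 2 single-nucleus RNA libraries from injured spinal cord, and the members were chosen by name. At least 1 transcript molecule (unique molecular identifier, UMI) of an EBF gene was found in 13649 of 16360 core nuclei and in 5100 of 7443 distal nuclei. The family was singled out because its levels differed between nucleus classes in these same data, so its levels by class and library are given as a description and carry no test.

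EBF proteins (early B cell factors, also called COE or Olf/EBF factors) bind DNA as dimers through a zinc-containing domain and pair through a helix-loop-helix region. Ebf1 is best known as a factor that commits lymphoid precursors to the B cell lineage. In the developing nervous system the family is switched on as neurons leave the cell cycle. In Xenopus embryos an EBF gene acts downstream of the proneural factor NeuroD. Ebf2 is also known from the brown adipocyte lineage, Ebf3 from neuronal differentiation and migration, and Ebf4 from the olfactory epithelium.

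Both libraries came from the same kind of animal: male iNeuroD1GFP mice, labelled as 8 weeks old, whose spinal cord was injured at postnatal day 60. In this transgenic strain tamoxifen switches on the proneural factor NeuroD1, and its promoter and Cre line are not given in the labels. Tamoxifen (100 mg/kg per day) was given on days 5 to 8 after injury, and cords from 3 mice were taken on day 10. The first library holds nuclei of the lesion core and the second nuclei of the remaining cord, which one text calls distal and another peri-injury. Neither an uninjured cord nor a cord without the transgene is among these samples, and whether the 3 cords were pooled is not stated.

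The core library held 30469263 UMIs with a median of 1303 per barcode, and the distal library 19049572 with a median of 1743. With 1 library per region there is no replicate, so no p-value is given. Intervals are 95% exact intervals that cover counting error only. Clusters were classed by marker genes: excitatory neuron clusters held 78.6 CPM (UMIs of a gene per 1000000 UMIs of the class) of the glutamate transporter Slc17a6 in the core and 86.3 CPM in the distal library, against 20.9 and 9.03 CPM in inhibitory clusters. Free neuronal RNA was plain in the core: 5355 core nuclei formed a cluster with little variation beyond counting noise (background-like), at 719 CPM of the synaptic gene Snap25, and core fibroblasts read 582 CPM. In the distal library mature oligodendrocytes, taken here as the measure of free RNA, held 111 CPM of Snap25. The libraries shared 38 cell barcodes. The caudal gene Hoxd11 had 598 UMIs in the core and 0 in the distal library, whose limit is 3 counts, so injury and position along the cord cannot be told apart in any comparison of the regions.

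On mouse build GRCm38, Ebf1 (ENSMUSG00000057098) spans chromosome 11, 44617317 to 45008091, on the plus strand. Ebf2 (ENSMUSG00000022053) lies on the plus strand of chromosome 14, 67233292 to 67430918, and Ebf3 (ENSMUSG00000010476) on the minus strand of chromosome 7, 137193673 to 137314445. Ebf4 (ENSMUSG00000053552) lies on the plus strand of chromosome 2, 130295169 to 130370481. Antisense or opposite-strand genes overlap Ebf1 (Gm12158), Ebf2 (4930438E09Rik, 1700120O09Rik, Gm6878 and Gm10860) and Ebf3 (Gm10578 and Gm45278). Strand handling in the counting is not stated, so reads of such a pair cannot be told apart. Among them 4930438E09Rik had the most UMIs, 462 in the core and 665 in the distal library, against 7989 and 6079 for Ebf2.

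Promoter windows of family members are shown here, to set the sequences at the starts of the abundant members beside that of the scarce Ebf4, each from 250 bases before to 50 after a RefSeq transcription start (GRCm38.p6), with E-boxes (CANNTG, either strand), the letters that proneural factors bind, in capitals. RefSeq windows matched 3 of the 4 members, Ebf1, Ebf3 and Ebf4, and Ebf1 had windows at 2 starts, of which the one with E-boxes is printed. The Ebf1 window is chr11:44619978-44620277 (plus strand), the Ebf3 window chr7:137314396-137314695 (minus strand) and the Ebf4 window chr2:130295689-130295988 (plus strand).
Ebf1: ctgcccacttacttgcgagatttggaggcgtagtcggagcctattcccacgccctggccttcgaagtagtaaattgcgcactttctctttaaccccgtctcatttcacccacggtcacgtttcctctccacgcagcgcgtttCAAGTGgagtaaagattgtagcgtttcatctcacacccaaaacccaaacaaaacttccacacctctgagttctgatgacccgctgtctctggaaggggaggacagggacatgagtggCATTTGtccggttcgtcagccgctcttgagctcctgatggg
Ebf3: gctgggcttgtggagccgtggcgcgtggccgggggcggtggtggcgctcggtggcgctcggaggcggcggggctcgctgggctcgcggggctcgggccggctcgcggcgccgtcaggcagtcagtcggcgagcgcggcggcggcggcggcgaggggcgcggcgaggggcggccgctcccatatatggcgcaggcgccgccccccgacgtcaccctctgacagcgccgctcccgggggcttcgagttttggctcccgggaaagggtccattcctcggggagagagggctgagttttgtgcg
Ebf4: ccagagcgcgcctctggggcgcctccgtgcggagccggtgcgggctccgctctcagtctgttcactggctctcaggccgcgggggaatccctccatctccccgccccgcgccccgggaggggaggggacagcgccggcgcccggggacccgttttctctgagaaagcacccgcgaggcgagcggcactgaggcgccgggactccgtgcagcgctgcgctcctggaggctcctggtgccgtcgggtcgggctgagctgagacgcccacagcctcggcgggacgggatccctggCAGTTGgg
The windows differ in base composition: GC content was 53.0% for the printed Ebf1 window, 77.0% for Ebf3 and 74.3% for Ebf4, against a median of 52.7% over all 32851 RefSeq windows. The other Ebf1 window, chr11:44617850-44618149 (plus strand), had a GC content of 36.7% and 0 E-boxes. The printed Ebf1 window held 2 E-boxes, the Ebf4 window 1 and the Ebf3 window 0, whereas 72.3% of all windows held at least 1. The E-box form CAGATG, found in 17.2% of all windows, and the EBF palindrome TCCCNNGGGA, found in 0.904%, were in none of the members' windows. A match or its absence describes these letters and not the binding of a factor.

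Ebf1 was among the most abundant genes of both libraries. It had 1358 CPM in the core (95% interval 1345 to 1371), at rank 76 of all genes, and 1336 CPM in the distal library (1320 to 1353), at rank 71. Ebf2 had 262 CPM in the core and 319 CPM in the distal library, Ebf3 334 and 197 CPM, and Ebf4 32.2 and 18.0 CPM. Intronic reads of long genes add to nuclear counts, so levels of different genes were compared per 100 kb of gene span. On that scale Ebf1 had 347 CPM per 100 kb in the core and 342 in the distal library, Ebf3 276 and 163, Ebf2 133 and 162, and Ebf4 42.7 and 23.9. A single nucleus held up to 65 UMIs of Ebf1 in the core and up to 93 in the distal library, while Ebf4 reached 3 and 4.

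Excitatory neurons carried the most Ebf1 of the neuron classes. Ebf1 had 2803 CPM in 3029 core excitatory nuclei (2760 to 2847) and 4141 CPM in 1230 distal ones (4067 to 4216). Inhibitory neurons had 1532 CPM in 1677 core nuclei (1491 to 1574) and 1869 CPM in 365 distal ones (1785 to 1955). In the core the excitatory level was 2.42-fold that of background-like nuclei, which held 1157 CPM, and the inhibitory level 1.32-fold. Distal levels were 15.5-fold and 7.01-fold those of oligodendrocytes, which held 267 CPM. The 40 distal background-like nuclei held more than oligodendrocytes, 909 CPM (681 to 1189).

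Detection followed the same order. At least 1 Ebf1 UMI was present in 93.0% of core excitatory nuclei (92.0 to 93.9%), at a median depth of 1606 UMIs, and in 65.8% of background-like nuclei, at a median of 927. The distal share was 97.6% of excitatory nuclei (96.6 to 98.4%), at a median of 2022 UMIs, and 39.1% of oligodendrocytes, at a median of 1726. Thinning each nucleus to 1000 UMIs dropped 5181 shallower core and 1507 shallower distal nuclei. The core shares were then 85.4% and 64.4% and the distal shares 93.8% and 23.9%. Inhibitory nuclei had an Ebf1 UMI in 77.5% of cases in the core and 79.5% in the distal library, or 62.5% and 66.6% after thinning, so the thinned core share did not exceed that of background-like nuclei.

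Ebf2 separated the neuron classes by the widest margin of the family. It had 714 CPM in core excitatory nuclei (692 to 736) and 1242 CPM in distal excitatory nuclei (1202 to 1284), against 122 CPM (111 to 135) and 86.3 CPM (69.0 to 107) in inhibitory nuclei. The core inhibitory level lay below that of background-like nuclei, 182 CPM, at a ratio of 0.674 (0.600 to 0.757). Whether it is free RNA or expression was not tested. By cluster, inhibitory Ebf2 lay between 65 CPM in cluster 12 and 205 CPM in cluster 9 in the core. The same clusters held 42.9 and 193 CPM in the distal library. Distal inhibitory neurons held 1.95-fold the oligodendrocyte level of 44.3 CPM, and excitatory neurons 28.1-fold. The 40 distal background-like nuclei held 68.6 CPM from 4 UMIs (18.7 to 176). An Ebf2 UMI was present in 56.4% of core and 78.0% of distal excitatory nuclei, against 16.0% of core background-like nuclei and 8.28% of distal oligodendrocytes. After thinning, these shares were 42.6%, 62.9%, 15% and 4.24%.

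Ebf3 was spread more evenly over neurons. It had 613 CPM in core excitatory nuclei (593 to 634) and 562 CPM in distal excitatory nuclei (535 to 591), against 478 CPM (455 to 501) and 379 CPM (342 to 419) in inhibitory nuclei. Core background-like nuclei held 209 CPM and distal oligodendrocytes 31.8 CPM. In the core, excitatory and inhibitory levels were 2.94-fold and 2.29-fold those of background-like nuclei. Distal levels of the same classes were 17.7-fold and 11.9-fold those of oligodendrocytes. The 40 distal background-like nuclei held more than oligodendrocytes, 223 CPM from 13 UMIs (119 to 381). Neurons that could not be divided by transmitter genes held less, 253 CPM in 5154 core nuclei and 160 CPM in 480 distal nuclei.

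Ebf4 was scarce in neurons. It had 23.5 CPM in core excitatory nuclei (19.7 to 27.9) and 15.2 CPM in distal ones (11.1 to 20.5), against 30.8 CPM (25.2 to 37.2) and 24.1 CPM (15.4 to 35.8) in inhibitory nuclei. Core background-like nuclei held 30.8 CPM. The core ratios to them were 0.764 (0.603 to 0.967) in excitatory, 0.999 (0.775 to 1.28) in inhibitory and 1.21 (1.02 to 1.46) in undivided neurons. Among distal classes of at least 50 nuclei the highest levels were those of committed oligodendrocyte precursors, 51.3 CPM from 9 UMIs (23.4 to 97.3), and of oligodendrocyte precursor cells (OPCs), 50.8 CPM from 19 UMIs (30.6 to 79.3). Mature oligodendrocytes held 8.51 CPM (5.74 to 12.2), so the ratios were 6.02 (2.52 to 13.0) for committed precursors and 5.97 (3.17 to 11) for OPCs. An Ebf4 UMI was found in 7.11% of 253 OPCs, at a median depth of 1369 UMIs, against 1.53% of oligodendrocytes.

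In the order of levels among classes of at least 50 nuclei, the intervals of neighbouring classes often overlapped. For Ebf1 in the core, endothelium and excitatory neurons stood apart from each other and from the rest, fibroblasts and inhibitory neurons overlapped, and astrocytes overlapped both background-like nuclei and undivided neurons. For Ebf1 in the distal library, excitatory neurons, endothelium, inhibitory neurons and fibroblasts followed each other without overlap. The classes between CSF-contacting neurons (730 CPM) and committed oligodendrocyte precursors (450 CPM) overlapped their neighbours. The 31 distal mural nuclei, too few for this order, held 3861 CPM (3277 to 4518), which overlapped excitatory neurons. For Ebf2, excitatory neurons were separate from all 6 other classes of at least 50 nuclei in the core and all 10 in the distal library. Each distal class after fibroblasts (181 CPM) overlapped the next in order. For Ebf3, excitatory, inhibitory and undivided neurons were separate from one another in both libraries. For Ebf4, no pair of neighbours was separate in either library.

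**Figure D1:**
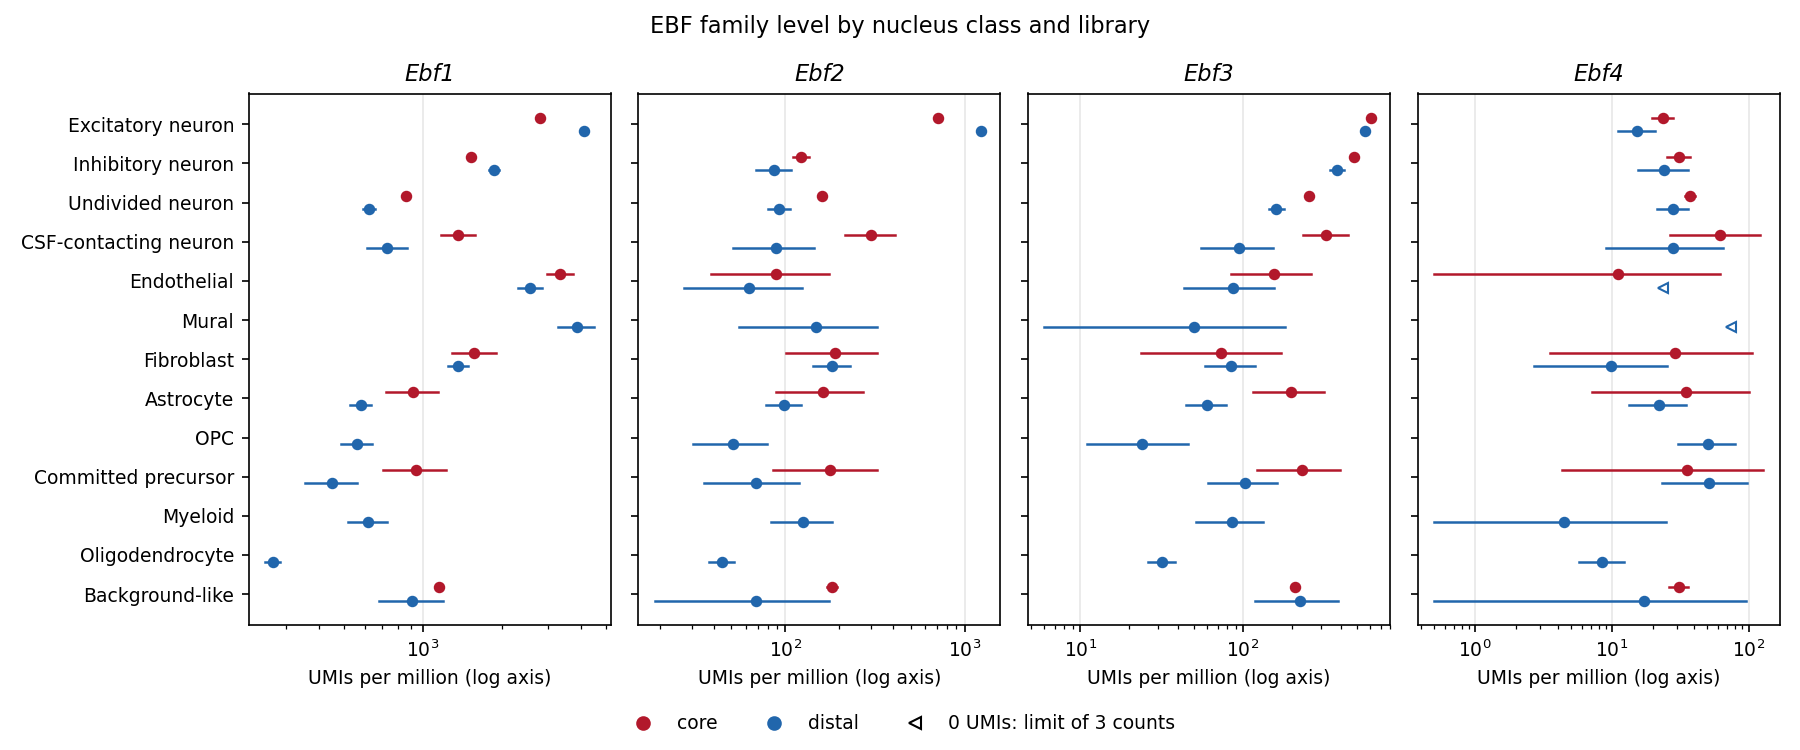
CPM (log axis) of Ebf1 to Ebf4 by nucleus class, core in red and distal in blue, for classes of at least 30 nuclei; points are summed levels, bars 95% exact counting intervals, and open triangles the limit of 3 counts where no UMI was found. Ebf2 stood at 714 and 1242 CPM in excitatory neurons and at 122 CPM or below in inhibitory neurons, and Ebf1 reached 3350 CPM in core endothelium and 3861 CPM in distal mural nuclei.

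The excitatory to inhibitory ratio was set against all genes with at least 10 CPM in either class, calling a gene when the ratio passed 1.5-fold and its interval excluded 1. In the core, 2 of 4 members were called higher in excitatory neurons, where 5.07% of 9092 genes were, and 0 were called lower, where 4.65% were. The ratios were 5.83 for Ebf2 (5.27 to 6.46), 1.83 for Ebf1 (1.77 to 1.89), 1.28 for Ebf3 (1.21 to 1.36) and 0.765 for Ebf4 (0.588 to 0.997). In the distal library 2 of 4 were called higher, where 6.57% of 10004 genes were, and 0 lower, where 7.89% were. The distal ratios were 14.4 for Ebf2 (11.6 to 18.1), 2.22 for Ebf1 (2.11 to 2.33), 1.48 for Ebf3 (1.33 to 1.66) and 0.633 for Ebf4 (0.377 to 1.09).

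Classing neurons one by one changed this picture in the core. With nuclei taken as excitatory or inhibitory from their own UMIs of Slc17a6 or of Gad1, Gad2, Slc32a1 and Slc6a5, the Ebf2 ratio was 1.36 in the core (1.24 to 1.5) and 4.42 in the distal library. The Ebf1 ratio was then 1.26 in the core (1.21 to 1.32) and 2.45 in the distal library, so both core calls ended and both distal calls held. This alternative rests on 829 excitatory and 2344 inhibitory core nuclei, and a transmitter UMI in a core nucleus can itself be free RNA: background-like nuclei held 63.4 CPM of Slc17a6 and 53.4 CPM of Gad2. The part of free RNA in the smaller ratio was not tested.

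Within excitatory neurons the family varied from cluster to cluster. Over excitatory clusters of at least 30 nuclei in a library, Ebf2 lay between 98.1 CPM in cluster 7 and 1534 CPM in cluster 10 in the core, and between 93.0 and 1748 CPM in the same clusters in the distal library. Ebf1 lay between 1006 CPM in cluster 7 and 4677 CPM in cluster 10 in the core, and between 1222 CPM in cluster 7 and 5841 CPM in cluster 13 in the distal library. Ebf3 lay between 301 CPM in cluster 4 and 1055 CPM in cluster 10 in the core, and was again lowest in cluster 4, at 198 CPM, in the distal library. With both libraries together, where clusters differ in their share of distal nuclei, Ebf2 ranged 17.5-fold, Ebf1 5.65-fold and Ebf3 3.57-fold. On these pooled values the 4 clusters richest in Ebf2 were cluster 13 (leading genes Fer1l6, Gm6213, Nmur2, Ccdc172 and Cpne8), cluster 10 (with Bnc2, C1qtnf7, Cpne4 and Ccdc172 among its leading genes), cluster 5 (Nmu, Mylk, Gna14, Gmnc and Rxfp1) and cluster 4 (Casz1, Tnfaip8l3, Gm2694, Atp10a and Gm27016). Nmu encodes the peptide neuromedin U and Nmur2 one of its receptors.

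Cluster 4 combined high Ebf1 (3881 CPM) and Ebf2 (1109 CPM) with the lowest excitatory Ebf3. Cluster 13 was almost wholly distal, with 3 core and 283 distal nuclei, and held 5841 CPM of Ebf1, 1715 CPM of Ebf2 and 786 CPM of Ebf3 in the distal library. Cluster 7, the lowest in Ebf1 and Ebf2, held 66.4 CPM of Ebf4 in 44 distal nuclei (31.8 to 122) and 28.1 CPM in 495 core nuclei. In the distal library Ebf2 also reached 1023 CPM in 103 nuclei of cluster 36 (Syt10, 1700120O09Rik, Kcng2, Gm15261 and Pde11a), which was not classed because its neuron and oligodendrocyte markers stood at like levels.

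Inhibitory clusters differed in Ebf1 and less so in the others. With both libraries together Ebf1 ranged 7.52-fold over 5 clusters, between 442 CPM in cluster 15 and 3321 CPM in cluster 11 (Gucy2d, Col6a1, Hmga2, Robo3 and Gpc4), against 3454 CPM in excitatory cluster 5. Ebf2 in cluster 11 was 108 CPM, against 1508 CPM in cluster 5, while Ebf3 was 666 CPM in cluster 11, against 631 CPM in cluster 5. Ebf2 ranged 3.43-fold, between 59.2 and 203 CPM, with the highest level in cluster 9. Ebf3 ranged 2.62-fold and Ebf4 2.97-fold. Clusters were formed from these nuclei with the EBF genes left out of the genes used, and admitting them, when 3 of the 4 were among the variable genes, moved no excitatory, inhibitory or vascular ratio of a member beyond its counting interval.

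**Figure D2:**
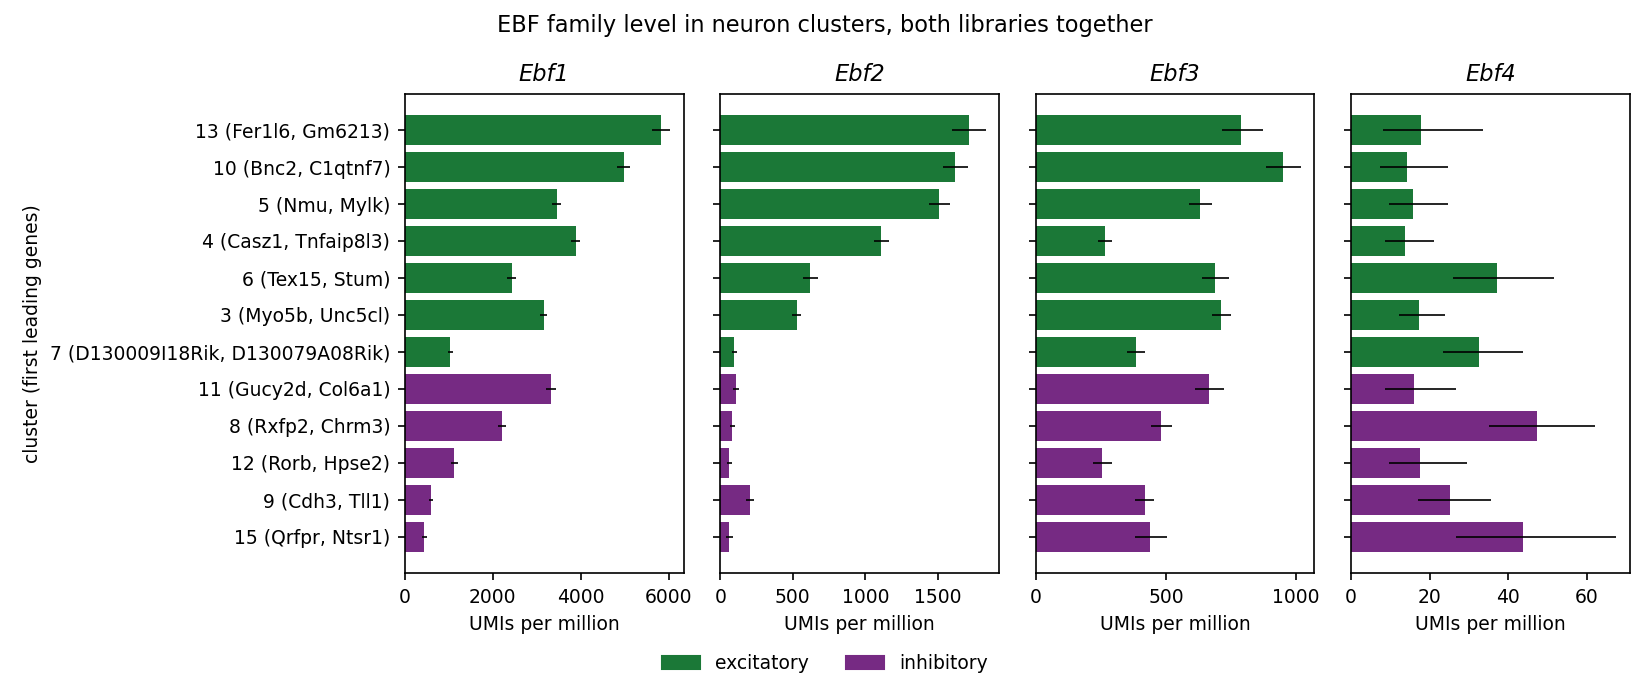
CPM of each member in the 7 excitatory (green) and 5 inhibitory (purple) neuron clusters, both libraries together, with 95% exact counting intervals; clusters are named by number and their first leading genes. Ebf2 stood at 97.5 to 1711 CPM in excitatory clusters and at 59.2 to 203 CPM in inhibitory ones, while Ebf1 of inhibitory cluster 11 was 3321 CPM.

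Between the regions, excitatory neurons of the core, pooled over clusters, held less Ebf1 and Ebf2 and about as much Ebf3. Over the excitatory clusters whose leading genes held no marker of another class (2711 core and 1086 distal nuclei), Ebf1 had 2612 CPM in the core and 3973 CPM in the distal library, a ratio of 0.657 (0.641 to 0.675). Ebf2 had 630 CPM in the core and 1177 CPM in the distal library, a ratio of 0.535 (0.509 to 0.563). Ebf3 had 568 and 534 CPM, a ratio of 1.06 (0.998 to 1.14), and Ebf4 24.0 and 16.4 CPM, a ratio of 1.46 (1.02 to 2.12). By the same call rule 2 of 4 members were lower in the core, where 13.4% of 9585 genes were, and 0 were higher, where 8.01% were.

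The Ebf1 call rested on cluster 13. Without the nearly distal-only cluster 13 the ratio was 0.743 for Ebf1 (0.722 to 0.765), which no longer passed 1.5-fold, and 0.602 for Ebf2 (0.570 to 0.637), which did. The Ebf1 call also ended with TMM scaling, at 0.710, and without the 5% of nuclei with the highest doublet scores, at 0.679. Within single clusters Ebf1 was lower in the core in 5 of 6 excitatory clusters, at 0.785 to 0.923, and higher in cluster 6, at 1.83 (1.58 to 2.14) with 498 core and 47 distal nuclei. Ebf2 was lower in the core in 4 of 6, with the lowest ratio in cluster 3 at 0.691 (0.612 to 0.779), and again higher in cluster 6 at 2.07. Ebf3 was at or above 1 in all 6 excitatory clusters, at 1.02 to 1.77, and its interval excluded 1 in 5 of them. By the call rule, 0 single clusters were lower in the core for Ebf1 or Ebf2. The rule called 1 cluster higher for each of these and 2 for Ebf3. The pooled Ebf2 ratios, 0.535 and 0.602, lay below that of every single cluster. The part of the mix of clusters in the pooled ratios was not tested. Cluster 10, left out of the pooled values because the fibroblast marker Bnc2 is among its leading genes, had ratios of 0.859 for Ebf1, 0.877 for Ebf2 and 1.34 for Ebf3.

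Depth, free RNA and axial level moved with the regions. Core excitatory nuclei had a median of 1606 UMIs and distal ones 2022, and they held 101 and 559 CPM of the myelin gene Mbp. The caudal gene Hoxc10 stood at 34.9 and 2.08 CPM, and Hoxd11 at 15.3 CPM and 0, in these same nuclei. Inhibitory markers in excitatory nuclei were higher in the core as well, with Gad2 at 21.6 and 4.85 CPM. The part of these differences in the EBF ratios was not tested.

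Inhibitory neurons gave 0 of 4 members called in either direction, where 5.12% of 9772 genes were called higher and 10.7% lower in the core. The core over distal ratios were 0.820 for Ebf1 (0.777 to 0.865), 1.42 for Ebf2 (1.12 to 1.81), 1.26 for Ebf3 (1.13 to 1.41) and 1.28 for Ebf4 (0.814 to 2.08). Single clusters went both ways: Ebf1 was 0.746 in cluster 11, and 2.27 in cluster 9 and 3.49 in cluster 15 (1.99 to 6.67, from 189 core and 13 distal UMIs). In the Ebf1-poor clusters 9 and 15 the core levels of 650 and 512 CPM lay under the 1157 CPM of core background-like nuclei, against 287 and 147 CPM in the distal library. CSF-contacting neurons, cells of the central canal, had 1366 CPM of Ebf1 in 42 core nuclei and 730 CPM in 59 distal ones. The richest core nucleus held 51 of the 177 Ebf1 UMIs of these core nuclei.

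**Figure D3:**
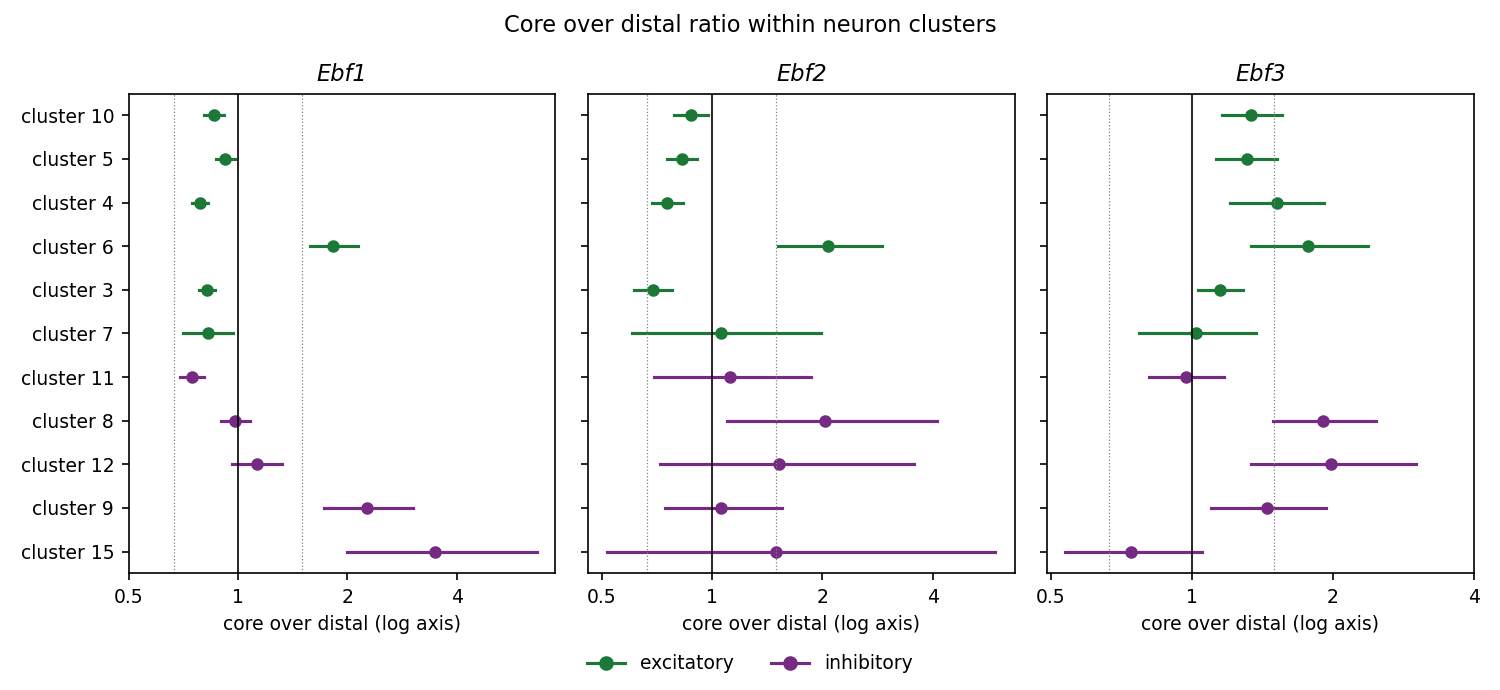
Core over distal ratio (log axis) of Ebf1, Ebf2 and Ebf3 within the neuron clusters of at least 30 nuclei in both libraries, with 95% exact counting intervals; the solid line marks 1 and the dotted lines a 1.5-fold change either way. Excitatory Ebf1 lay at 0.785 to 0.923 outside cluster 6, at 1.83, and excitatory Ebf3 lay at 1.02 to 1.77.

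Outside neurons, Ebf1 was the leading member of endothelial, mural and fibroblast nuclei. Endothelial nuclei held 3350 CPM of Ebf1 in the core (51 nuclei, 2983 to 3750) and 2568 CPM in the distal library (88 nuclei, 2298 to 2862). The 31 distal mural nuclei, the contractile and pericyte cells of vessels, held 3861 CPM (3277 to 4518), and the 5 core ones had 29 UMIs. Fibroblasts held 1573 CPM in the core (71 nuclei, 1290 to 1899) and 1364 CPM in the distal library (324 nuclei, 1252 to 1483). The vascular receptor gene Flt1 stood at 3606 and 2050 CPM in core and distal endothelium. The collagen gene Col1a1 stood at 102 and 99.2 CPM in core and distal fibroblasts. Both genes are in the marker lists that assigned these classes, so their levels are no separate evidence. Of the 8 listed fibroblast markers 7 were found in core fibroblasts, all but Lum.

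Set against distal oligodendrocytes, endothelial Ebf1 was 9.63-fold higher (8.47 to 10.9), mural Ebf1 14.5-fold (12.1 to 17.2) and fibroblast Ebf1 5.11-fold (4.59 to 5.69). The 40 distal background-like nuclei held more than oligodendrocytes, 909 CPM of Ebf1 (681 to 1189) and 223 CPM of Ebf3 (119 to 381). Distal fibroblasts held 84.3 CPM of Ebf3, below those nuclei. In fibroblasts Ebf2 was 4.09-fold higher (3.05 to 5.43) and Ebf3 2.65-fold (1.75 to 3.93), or 1.42-fold (0.797 to 2.38) without the highest doublet scores. All 3 members with 10 CPM or more were thus called higher in fibroblasts, where 23.9% of 10514 genes were and 10.7% were lower. In endothelium Ebf1 and Ebf3, at 2.72-fold (1.32 to 5.05) from 11 UMIs, were called, where 18.4% of 10723 genes were higher and 7.46% lower. Endothelial Ebf2 was 1.42-fold (0.602 to 2.87). In nuclei of at least 1500 UMIs endothelial Ebf3 was 2.04-fold (0.542 to 5.43) and not called. In mural nuclei Ebf1 and Ebf2, at 3.38-fold from 6 UMIs (1.22 to 7.52), were called, where 9.18% of 10579 genes were higher and 3.38% lower. Without the nucleus richest in Ebf2 UMIs in each class the mural Ebf2 ratio was 1.78 (0.363 to 5.30) and not called.

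Neuronal RNA also differed between these classes, with Snap25 at 191 CPM in distal fibroblasts, 141 CPM in distal endothelium and 125 CPM in distal mural nuclei, against 111 CPM in oligodendrocytes. Per UMI of Snap25, distal endothelium held 18.2 UMIs of Ebf1, distal fibroblasts 7.14, distal excitatory neurons 9.65 and oligodendrocytes 2.40. The share of Ebf1 among all family UMIs was 94.5% in distal endothelium (91.6 to 96.7%) and 83.2% in distal fibroblasts (80.1 to 86.0%), against 75.9% in oligodendrocytes (73.4 to 78.3%). The intervals of the endothelial and fibroblast shares did not overlap that of oligodendrocytes, and the part of free RNA in these levels was not tested. The fibroblast share did overlap those of distal OPCs, 81.6% (76.3 to 86.2%), and distal inhibitory neurons, 79.2% (77.5 to 80.9%). The fibroblast Ebf2 share, 11% (8.76 to 13.7%), overlapped that of oligodendrocytes, 12.6% (10.8 to 14.6%).

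In the core these classes were compared with background-like nuclei. Endothelial Ebf1 was 2.90-fold higher (2.57 to 3.25) and fibroblast Ebf1 1.36-fold (1.11 to 1.64), while fibroblast Ebf2 was 1.04-fold (0.553 to 1.79) and fibroblast Ebf3 0.349-fold (0.113 to 0.816). Core over distal, 0 of 4 members were called in fibroblasts, where 5.18% of 11710 genes were higher and 3.36% lower, and 0 in endothelium, where 2.85% of 12124 genes were higher and 3.05% lower. The Ebf1 ratio was 1.15 in fibroblasts (0.929 to 1.42) and 1.30 in endothelium (1.11 to 1.53). Ebf4 had 1 UMI in core endothelium and 0 in distal endothelium, where 3 counts would be 23.6 CPM.

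Distal glia held lower Ebf1. Myeloid nuclei had 615 CPM, astrocytes 578 CPM, OPCs 559 CPM and committed precursors 450 CPM, or 2.31-, 2.17-, 2.10- and 1.69-fold the oligodendrocyte level. Distal astrocytes also held 184 CPM and myeloid nuclei 215 CPM of Snap25, and their Ebf1 shares of the family, 76.2% and 74.1%, overlapped that of oligodendrocytes. The OPC share, 81.6%, overlapped those of both oligodendrocytes and distal fibroblasts. Core astrocytes, at 914 CPM of Ebf1, lay below background-like nuclei at 0.790-fold (0.624 to 0.986).

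Within single nuclei UMIs of the 3 abundant members were found together more often in excitatory than in inhibitory neurons. Detection of Ebf2 by itself differed as well, at 56.4% and 78.0% of core and distal excitatory nuclei against 17.7% and 13.2% of inhibitory ones. A share expected from the single members was not computed, so the shares of nuclei with all 3 are no measure of pairing. UMIs of Ebf1, Ebf2 and Ebf3 together were found in 1061 of 3029 core excitatory nuclei (35.0%) and in 617 of 1230 distal ones (50.2%), against 143 of 1677 core inhibitory nuclei (8.53%) and 22 of 365 distal ones (6.03%). Ebf1 with Ebf3 but without Ebf2 was the commonest combination of inhibitory neurons, at 35.5% in the core and 37.5% in the distal library. Nuclei with none of the 3 made up 2.67% of core and 0.488% of distal excitatory nuclei, against 11.5% and 9.32% of inhibitory nuclei. Core excitatory nuclei with all 3 had a median of 1735 UMIs and those with none 1469, so deeper nuclei more often showed all members.

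Depth was taken into account by weighting nuclei without a member over 10 depth classes to match those with it. Clusters were not matched, and the part of cluster differences in these shares was not tested. In core excitatory neurons Ebf2 was found in 58.5% of Ebf1-positive nuclei (56.6 to 60.3%) and in 27.3% of depth-matched Ebf1-negative ones. With nuclei thinned to 1000 UMIs these shares were 46.2% and 21.4%. Ebf3 was found in 60.8% of Ebf1-positive and 48.5% of Ebf1-negative core excitatory nuclei. In the distal library Ebf1-negative excitatory nuclei were too few for matching, and after thinning Ebf2 was found in 65.2% of Ebf1-positive and 29.0% of Ebf1-negative nuclei. Thinned distal shares of Ebf3 were close together, at 43.4% of Ebf1-positive and 42.0% of Ebf1-negative nuclei, and at 42.8% of Ebf2-positive and 44.1% of Ebf2-negative nuclei. In the core Ebf3 was found in 63.8% of Ebf2-positive and 54.8% of depth-matched Ebf2-negative nuclei, or 48.4% and 42.9% after thinning.

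In inhibitory neurons Ebf3 was found more often in Ebf1-positive than in Ebf1-negative nuclei, and Ebf2 was not. Cluster 11 held the most Ebf1 and the most Ebf3 of the inhibitory clusters. Core inhibitory Ebf2 lay below the background-like level, so its shares cannot decide on a pairing. In the core Ebf3 was found in 56.8% of Ebf1-positive nuclei (54.1 to 59.5%) and 42.5% of depth-matched Ebf1-negative ones, or 39.9% and 28.3% after thinning. Ebf2 was found in 17.9% of Ebf1-positive inhibitory nuclei (15.9 to 20.1%) and 19.2% of Ebf1-negative ones. The distal shares were 54.8% and 45.4% for Ebf3, and 13.1% and 13.8% for Ebf2. Distal fibroblasts had Ebf2 in 14.5% of Ebf1-positive nuclei (10.1 to 19.8%) and 13.8% of Ebf1-negative ones. Free RNA adds UMIs of each member to all nuclei and was not removed from these shares.

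**Figure D4:**
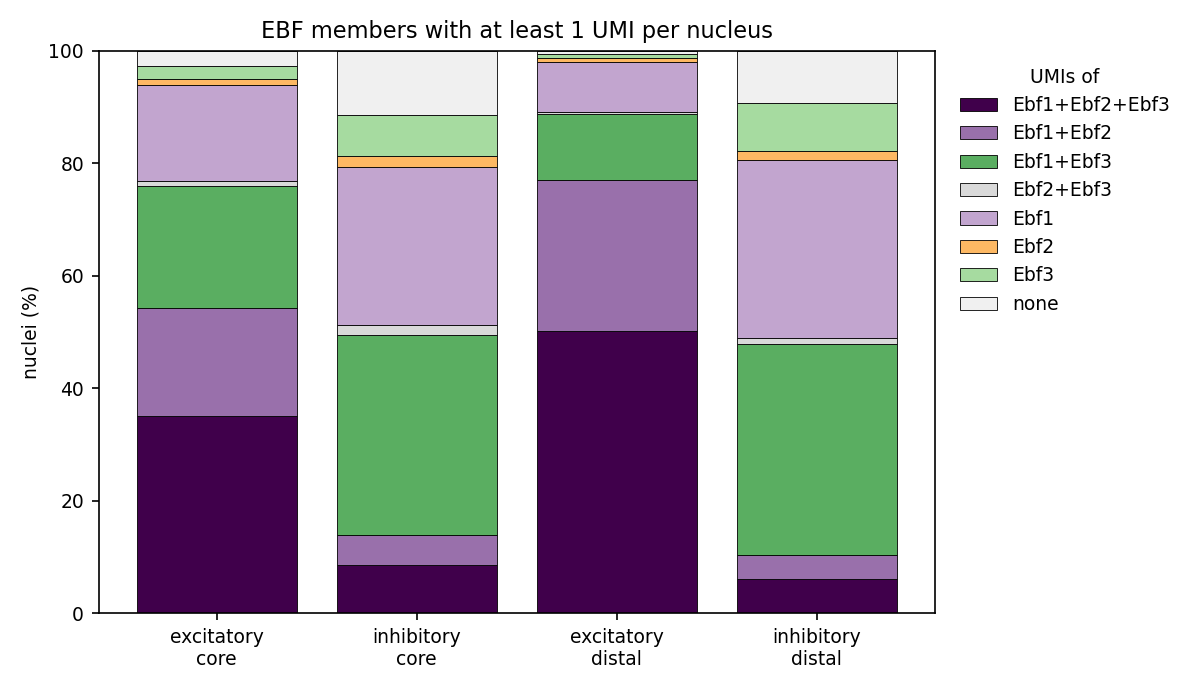
Share of nuclei (%) with at least 1 UMI of each combination of Ebf1, Ebf2 and Ebf3, for excitatory and inhibitory neurons of the core and distal libraries, without correction for depth or for the detection of single members. All 3 were found together in 35.0% and 50.2% of core and distal excitatory nuclei, against 8.53% and 6.03% of core and distal inhibitory nuclei.

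Across 39 clusters of at least 50 nuclei, levels of the members were compared with those of 8366 genes by Pearson correlation of log2(CPM + 5), as a description of clusters that share libraries, depth and free RNA. Ebf1 correlated with Ebf2 at 0.81 and with Ebf3 at 0.80, Ebf2 with Ebf3 at 0.70, and Ebf4 with the others at -0.01, -0.01 and 0.29. The genes most like Ebf1 were its antisense gene Gm12158 (0.86), the semaphorin co-receptor Plxna2 (0.84) and Cpne5, Arhgap6 and Camkv (0.83 each). Those most like Ebf2 were its opposite-strand neighbours 4930438E09Rik (0.93), 1700120O09Rik (0.90) and Gm6878 (0.89), followed by the calcium channel subunit Cacna2d1 and the dorsal horn homeobox gene Prrxl1 (0.87 each).

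Ebf3 was most like general neuronal genes, the kinase Camk2a (0.96), Mtus2 and the NMDA receptor subunit Grin2b (0.94 each), and Clvs1 and Camkv (0.93 each). Ebf4 was most like Map2 (0.77), Nrcam (0.76) and Adgrl1, A930009A15Rik and Mpped2 (0.74 each). The class levels of these genes come from the same clusters and are no separate evidence. Cacna2d1 had 1030 and 1461 CPM in core and distal excitatory neurons, against 208 and 102 CPM in inhibitory neurons, while Camk2a had 226 and 257 CPM in excitatory neurons, against 225 and 217 CPM in inhibitory neurons. These gene lists shifted with the clusters used: of the 5 genes named, clusters of the distal library alone gave 2 for Ebf1, 3 for Ebf2, 4 for Ebf3 and 1 for Ebf4, and those of the core library alone gave 1, 2, 1 and 0.

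Proteins that act with EBF factors were measured beside them. The partner list holds 8 genes, among them the zinc finger proteins Zfp423 and Zfp521, which bind EBF proteins. Zfp521 was the partner called higher in excitatory neurons, at 263 and 156 CPM in excitatory and inhibitory core nuclei, a ratio of 1.69 (1.53 to 1.87), and at 231 and 116 CPM in the distal library, a ratio of 1.98 (1.63 to 2.44). It was 1 of 6 partners measured in the core, where 5.07% of all genes were called higher, and 1 of 7 in the distal library, where 6.57% were. In both libraries 0 partners were lower, where 4.65% and 7.89% of all genes were. The list's median log2 ratio was 0.15 in the core and -0.03 in the distal library, against -0.01 and -0.03 over all genes measured. Core over distal, 1 of 7 partners was lower in excitatory and in inhibitory neurons, the leukocyte factor Runx1, at 3.34 and 12.5 CPM in excitatory nuclei and 1.16 and 12 CPM in inhibitory nuclei. Over all genes 13.4% and 10.7% were lower in these classes, so this count of lower partners is no result about partners.

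Zfp521 and Zfp423 were called higher in fibroblasts and endothelium. In distal fibroblasts Zfp521 had 288 CPM and Zfp423 191 CPM, 8.45-fold (6.49 to 11) and 8.01-fold (5.80 to 11) the oligodendrocyte levels. In distal endothelium they had 369 and 126 CPM, at 10.8-fold (7.57 to 15.3) and 5.27-fold (2.88 to 9.07). These were 2 of 7 partners measured in each class, near the 23.9% of all genes called higher in fibroblasts and 18.4% in endothelium, so the count is no result about partners. The chromatin remodeller Smarca4 was lower in endothelium at 0.421-fold. In mural nuclei 0 of 7 partners were called, where 9.18% of 10579 genes were higher and 3.38% lower. Both genes were also high in distal astrocytes, at 281 CPM for Zfp521 and 276 CPM for Zfp423, where Ebf1 had 578 CPM.

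Proneural factors, which act upstream of EBF genes in embryos, were near 0 in neurons. None of the 9 genes reached 10 CPM in excitatory or inhibitory nuclei of either library. Neurod1 itself, the gene of the transgene, had 4.28 and 5.20 CPM in core and distal excitatory nuclei and 2.90 and 6.02 CPM in core and distal inhibitory nuclei, and whether its count includes the transgene is not given. It was the 1 listed factor measured in distal fibroblasts and endothelium, at 22.3 and 39.3 CPM, where 3 counts are 7.44 and 23.6 CPM. These were 4.14-fold (1.65 to 9.60) and 7.29-fold (2.13 to 20.2) the oligodendrocyte level of 5.39 CPM. Over all genes 23.9% were called higher in fibroblasts and 18.4% in endothelium. Distal astrocytes held 22.2 CPM of Neurod1, like fibroblasts. Core endothelium held 66.6 CPM and core fibroblasts 0, where 3 counts would be 43.7 CPM. In core excitatory neurons the 24 nuclei with a Neurod1 UMI had Ebf1 in 95.8% (78.9 to 99.9%), Ebf2 in 62.5% (40.6 to 81.2%) and Ebf3 in 12 nuclei, or 50% (29.1 to 70.9%). Depth-matched nuclei without Neurod1 had them in 93.5%, 57.2% and 62.3%, within these intervals.

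Targets known from other lineages were mostly absent. Of the 9 B cell targets, Foxo1, which many cell types express, was the 1 measured in neurons. Its core over distal ratio was 0.512 (0.344 to 0.762) in excitatory and 0.568 (0.354 to 0.930) in inhibitory neurons, where 13.4% and 10.7% of all genes were lower. Foxo1 was 3.19-fold higher (2.29 to 4.35) in distal endothelium than in oligodendrocytes, where 18.4% of all genes were higher. Distal astrocytes held 229 CPM of Foxo1, against 353 CPM in distal endothelium. The B cell receptor genes Cd79a and Cd79b had 21 and 0 UMIs in the whole core library, against 16 and 4 in the distal library, so both were at or near 0. Of the 7 adipose and mesenchymal genes, Kitl, the ligand of the receptor Kit, was higher in excitatory than inhibitory neurons, at 3.00-fold in the core (1.96 to 4.77) and 3.94-fold in the distal library (1.59 to 12.6). It was 1 of 3 measured in each library, where 5.07% and 6.57% of all genes were called higher. Ppargc1a was lower in the distal library at 0.432-fold (0.319 to 0.587), where 7.89% of all genes were. In distal endothelium the chemokine Cxcl12 had 165 CPM and Kitl 314 CPM, 83.1-fold (34.0 to 231) and 79.1-fold (42.1 to 157) the oligodendrocyte levels. Both were higher in the 31 distal mural nuclei too, at 37.6-fold each (6.28 to 165 for Cxcl12 and 11.9 to 104 for Kitl). The mural levels were 74.7 CPM of Cxcl12, where 3 counts are 74.7 CPM, and 149 CPM of Kitl. Endothelial markers summed to 747 CPM in these nuclei and 6071 CPM in distal endothelium, and the part of endothelial RNA was not tested. Cxcl12 and Kitl were 2 of 3 measured in each class, where 18.4% of all genes were higher in endothelium and 9.18% in mural nuclei. Kitl was also the 1 of 4 such genes called between regions in endothelium, at 599 CPM in the core and 314 CPM in the distal library. Over all genes 2.85% were higher and 3.05% lower there.

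Spinal lineage factors gave the neuron classes a frame. Of 19 measured in the core, 3 were higher and 8 lower in excitatory neurons, where 5.07% and 4.65% of all genes were. The median log2 ratio was -0.35, against -0.01 over all genes measured. Of 20 measured in the distal library, 5 were higher and 8 lower, where 6.57% and 7.89% of all genes were, with a median of -0.32, against -0.03. Lmx1b, a factor of dorsal excitatory neurons, was 9.44-fold higher in the core (7.29 to 12.4) and 23.5-fold in the distal library (11.3 to 58.8), and Prrxl1 7.51-fold (4.58 to 13.1) and 8.87-fold (3.98 to 24.5). Pax8, a factor of inhibitory neurons, was lower at 0.122-fold (0.0904 to 0.162) and 0.0230-fold (0.00972 to 0.0469). Core over distal, 5 of 18 lineage factors were higher and 1 lower in excitatory neurons, where 8.01% and 13.4% of all genes were, led by Pax2 at 3.71-fold (2.34 to 6.16) and Pax8 at 3.33-fold (1.57 to 8.10), which mark inhibitory neurons. Tlx3, which specifies excitatory neurons, was the lower one at 0.516-fold (0.317 to 0.840).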

How the data were processed

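Nuclei from frozen spinal cord were profiled with 10x Genomics 3′ chemistry, per the labels. The authors deposited UMI counts per gene and barcode, made with Cell Ranger 7.1.0 per the file headers; Seurat and the builds GRCh38 and mm10 are named without a role in the submitters' processing notes. The aligned annotation and strand handling are not given in the sources used here. Nuclei passed with 300 or more genes and no more than 5% of UMIs mitochondrial. They were clustered with scanpy 1.11.5 (2000 variable genes without the EBF family, 40 principal components, 15 neighbours, Leiden resolution 1.0), giving 46 clusters, and classed by marker lists with limits set after the data were seen. Of 32285 features, 32158 (99.6%) were in GENCODE M21, the source of positions and spans. Scrublet called 0 core and 1383 distal doublets (18.6%), at thresholds of 0.608 and 0.104 on its scores, so its calls were not used and doublets remain.

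Summed UMIs per class gave CPM, with exact Poisson, Clopper-Pearson and conditional 95% intervals (scipy 1.17.1). Depth was 500 UMIs or more per barcode in both libraries. Ratio calls were tested on simulated Poisson counts for core over distal excitatory neurons (9260 genes). Of 200 genes changed 2-fold 99.5% were recovered, and 1.53% of unchanged genes were called. The simulation held no variation between nuclei or libraries beyond counting error, so 1.53% is no rate of false calls in these data. The members and gene lists were chosen with earlier results of these data known. Named genes are, per list and direction, at most 2 with the largest called ratios, the 5 genes most like each member, and clusters above 3 times a member's library level; other genes named serve as class markers or were chosen after their values were seen. A gene that this rule names is not reported here.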

Additional observations from a re-analysis of the deposited data

How the results depend on the processing

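Of the members' ratios recomputed under alternatives, 238 stayed within their counting intervals and 27 moved, and no called ratio changed direction. Among members called, removing the 5% highest doublet scores gave 1 higher and 1 lower member core over distal in excitatory neurons (main 0 and 2) and 1 higher in inhibitory neurons (main 0). TMM scaling, which has log2 factors of -0.11 in both neuron classes, 0.13 in fibroblasts and 0.05 in endothelium, gave the same counts, 1 higher and 1 lower in excitatory and 1 higher in inhibitory neurons. Under both, the lower member was Ebf2, at 0.565 and 0.578, Ebf1 missed the call at 0.679 and 0.710, and the higher members were Ebf4 in excitatory neurons, at 1.75 and 1.58, and Ebf2 in inhibitory neurons, at 1.63 and 1.53. Leaving out the nucleus with the most UMIs of the gene in each class gave 1 higher member in excitatory neurons, 1 higher in inhibitory neurons and 1 higher in mural nuclei (main 2). Classing neurons one by one gave 0 higher in excitatory over inhibitory core neurons (main 2) and 1 higher core over distal in inhibitory neurons. Alternatives chosen after seeing the data were clusters with 30 nuclei in both libraries, which gave 1 lower excitatory member, and nuclei with 1500 UMIs or more, which gave 1 higher endothelial member (main 2). Beyond what these constructions show, the cause was not tested. Over all alternatives Ebf2 core over distal in excitatory neurons ranged from 0.366 to 0.602, and Ebf3 in fibroblasts over oligodendrocytes from 1.42, not called without the highest doublet scores, to 4.19. Depth limits Ebf4 and the core mural, ependymal and Schwann nuclei. No paired analysis was possible because each region has 1 library and the labels carry no replicate numbers.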

Other observations

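Cholinergic neurons, which include motor neurons, held little of the family. Ebf1 had 421 CPM in 31 core nuclei (321 to 542) and 476 CPM in 12 distal nuclei (366 to 609), against 2803 and 4141 CPM in core and distal excitatory neurons. Their median depth was the highest of the classes, 3827 UMIs in the core and 7028 in the distal library. CSF-contacting neurons held more of 3 members in the core: Ebf2 had 301 CPM in the core and 89.2 CPM in the distal library, a ratio of 3.38 (1.84 to 6.47), and Ebf3 324 and 94.7 CPM, a ratio of 3.42 (1.91 to 6.41). Core background-like nuclei held 182 CPM of Ebf2 and 209 CPM of Ebf3, and the part of free RNA in these ratios was not tested.

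Among core neurons not divided by transmitter genes, 53 nuclei had a Neurod1 UMI. Ebf1 was found in 81.1% of them (68.0 to 90.6%), Ebf2 in 28.3% (16.8 to 42.3%), Ebf3 in 41.5% (28.1 to 55.9%) and Ebf4 in 17% (8.07 to 29.8%). Depth-matched nuclei without Neurod1 had them in 77.4%, 31.0%, 47.0% and 13.6%, all within those intervals.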
